A study of Mus musculus with 12 samples.

Results

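The comparison sets mouse embryonic stem cells that had spent 72 h without a supply of the transcription factor Sox2 against the same cells before the supply was switched off. It rests on 4 of the 12 arrays of the series, 2 labelled 72 h and 2 labelled 0 h, chosen by their time labels. A single array labelled 96 h was kept out of it and served as a check of direction and size. The cells were 2TS22C, an inducible Sox2-knockout line in which tetracycline (Tc) shuts off the remaining Sox2. The 0 h cells were grown without Tc, the 72 h and 96 h cells with it, and all of them in GMEM medium with LIF, the cytokine that holds mouse stem cells in their undifferentiated state. All groups therefore carry the knockout, and the controls differ by the absence of the drug and not of the modified alleles. The state is that of 1 line, and no Tc-treated line with intact Sox2 is among the samples used here. Whether the 2 arrays of a time stem from separate cultures is not given in the labels, so each p-value covers the spread between arrays, and that spread may be technical. Titles give Tc to every sample after 0 h, while the description field marks each sample as untreated; the titles were followed.

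Sox2 works as a partner of Oct3/4 on the enhancers that keep stem cells pluripotent, that is, able to form every lineage of the embryo. Cells that lose either factor are known to leave that state and to take on features of trophoblast, the outer layer that builds the placenta. A stem cell also makes a set of microRNAs in large amounts from 1 cluster, named after miR-290. These are silenced as it differentiates.

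Each array read the sample RNA in Cy3 and a pool of RNA from 11 mouse cell lines in Cy5. A level below is the log2 ratio of sample over that pool, so that 0 means as much as in the pool, and a change is the 72 h level minus the 0 h level. The array files do not pair probes with genes. A gene name is given here only where at least 30 bases of a 60-base probe matched a RefSeq start-site window or microRNA hairpin of the GRCm38.p6 assembly, at 1 place, on the strand of 1 gene. Places were counted only within these windows and hairpins, so a match elsewhere in the genome was not seen. The search placed 471 of 42006 probes and named 273 by 1 gene each, or 269 genes. The source of the names gives the ends of a gene and not its exons, so whether a probe lies in an exon, an intron or an untranslated region was not determined. No placed probe read Sox2 or Oct3/4, so the switch itself was not checked, and of 432 genes on the marker and pathway lists only Plet1 and Acta2 were read by a probe named in this way. The labelled cell type could therefore not be checked against its defining markers.

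The sequences behind the clearest changes follow, so that unnamed probes can be identified from their letters. The first 2 belong to the unnamed probes that rose most and the next 2 to those that fell most.
Z00015331-1: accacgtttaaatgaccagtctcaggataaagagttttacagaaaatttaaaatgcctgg
Z00000270-1: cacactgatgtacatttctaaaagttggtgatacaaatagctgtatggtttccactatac
Z00026066-1: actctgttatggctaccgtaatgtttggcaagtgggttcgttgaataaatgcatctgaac
Z00070910-1: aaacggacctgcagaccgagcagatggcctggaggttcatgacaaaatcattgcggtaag

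The next 3 are members of a family of 18 probes with shared letters that fell together. They are the members with the second largest fall, with a fall in the middle of the order and with the second smallest fall, and the capitals mark a run of 27 bases held by 9 of the 18.
second largest fall: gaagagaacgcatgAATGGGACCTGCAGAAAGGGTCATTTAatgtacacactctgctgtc
middle of the order: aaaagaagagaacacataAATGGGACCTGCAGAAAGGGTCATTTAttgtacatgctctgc
second smallest fall: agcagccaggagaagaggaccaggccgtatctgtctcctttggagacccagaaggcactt

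The last pair shows the probe that lies on the hairpin of miR-295 and the mature microRNA. In the probe the capitals are the letters of miR-295-3p, and in the microRNA they are its seed, bases 2 to 8.
D7Ertd143e probe: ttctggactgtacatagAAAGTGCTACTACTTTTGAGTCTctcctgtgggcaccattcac
mmu-miR-295-3p: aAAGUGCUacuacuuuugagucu

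After 72 h 7791 of 41737 tested probes were called higher, which is 18.7%, and 6294 were called lower, which is 15.1%, at an adjusted p under 0.05 in limma. Together 33.7% of the probes were called. The typical change was small: the median was 0.37 among called rises and -0.31 among called falls on the log2 scale. A rise of at least 2-fold was called for 727 probes (1.74%) and a fall of that size for 474 (1.14%). These counts depend on the background correction: with none 339 rose and 235 fell by that much, and with Agilent's processed signals 1067 rose and 724 fell. At least 4-fold, 41 rose and 60 fell, and at least 8-fold 2 rose and 7 fell. Rises made up 60.5% of the called changes of at least 2-fold. With the Cy3 signal alone, in place of the ratio, their share was 52.7%. The replicate arrays lay close to each other, with a median SD of 0.034 at 0 h and 0.040 at 72 h, against a median SE of 0.050 for a change. For all 7791 called rises and for 6293 of the 6294 called falls, the 72 h arrays did not overlap with the 0 h arrays. Such a gap without overlap was seen for 31.6% of all tested probes in the upward and 32.5% in the downward direction. The median change over all tested probes was -0.003.

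**Figure D1:**
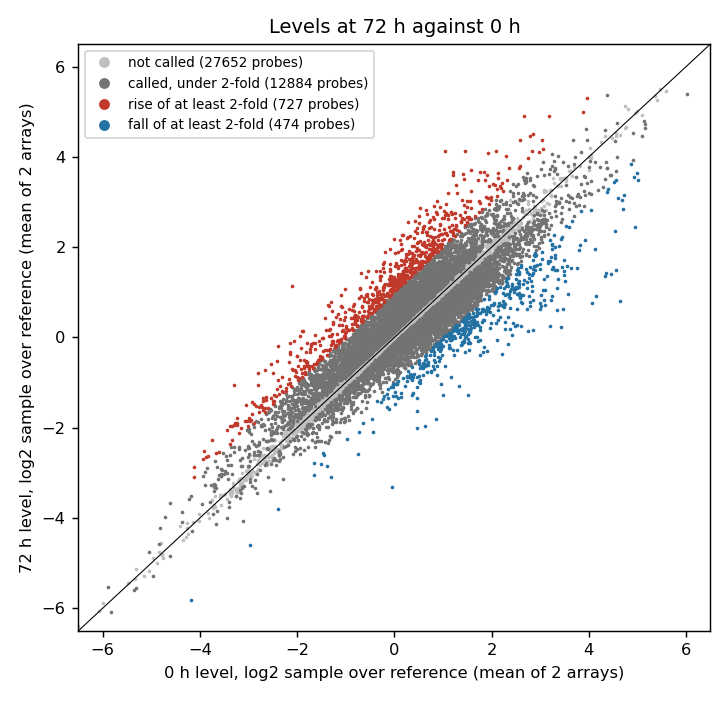
Each point is a tested probe, with its 0 h level on the x axis and its 72 h level on the y axis, both as log2 of sample over reference and as means of 2 arrays; the line marks equal levels. The 727 rises of at least 2-fold lie above the line at low and high levels, and the deepest of the 474 falls lie at the right, among probes far above the reference at 0 h.

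Plet1, a surface protein of early placenta and of trophoblast progenitors, was the only gene on the trophoblast list that a singly placed probe read. Its probe matched RefSeq over 54 bases at chr9:50505002-50505055, plus strand, inside the gene and 584 bases from its 3′ end. The levels were 3.94 and 3.83 on the 0 h arrays and 4.92 and 5.04 on the 72 h arrays. Both 72 h arrays lay above both 0 h arrays, and the gene was already 14.8-fold above the reference pool in the untreated cells and 31.6-fold at 72 h. The change was 1.10 (SE 0.06, limma adjusted p = 4.81e-07), or 2.14-fold. One 24 h array read 4.54 and the 48 h array 4.57, and the 96 h array read 4.81, between both times of the comparison. A probe that matches Prl3d1, Prl3d2 and Prl3d3, which encode placental lactogens of trophoblast giant cells, cannot tell these neighbours apart. Its 0 h arrays read 0.03 and 0.05, its 72 h arrays 0.00 and -0.02 and the 96 h array -0.05. That change of -0.05 (SE 0.05, limma adjusted p = 0.520) was not called.

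Among the genes of the cell surface and the matrix around it, the largest named rises were those of Il17rc and Lamb2. Il17rc, a subunit of the interleukin-17 receptors, was far below the reference in the stem cells. Its 0 h arrays read -2.12 and -2.11 and its 72 h arrays -0.66 and -0.75; the 96 h array read -0.64. The change of 1.41 (SE 0.05, limma adjusted p = 8.18e-09) was 2.67-fold, and the 48 h array, at -0.72, already lay in the range of the 72 h arrays. The change of Il17rc was 0.93 with no background correction. Its probe matched over 33 bases at chr6:113483106-113483138, 25 bases from the gene's 3′ end. Lamb2, a laminin chain of basement membranes, had levels of -2.66 and -2.72 at 0 h and of -1.21 and -1.50 at 72 h. It rose by 1.34 (SE 0.08, limma adjusted p = 4.33e-07), or 2.53-fold, and went on to -0.65 at 96 h. The 24 h arrays read -2.12 and -2.24 and the 48 h array -1.39, so that the 48 h array lay between those of 72 h and only the 96 h array above them. Its probe matched over 59 bases at chr9:108490426-108490484, 46 bases from the 3′ end. The start-site windows that the Il17rc and Lamb2 probes matched are those of neighbours on the same strand, Creld1 and Usp19. The names are those of the genes that hold the matched places. The first 30 matched bases of these 2 probes and of the Plet1 probe show letters by which they were placed.
Il17rc: CTACACTAGAATAAAAGCCGATACAGTATT
Lamb2: CCCTAGGGCCTAGCCTTGTCGCCAAGCACT
Plet1: CTACTAGCAGATTTCCACTGTGCCCAGACC

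Ntng1, a netrin attached to the cell membrane that guides axons, rose from 0.21 and 0.20 to 0.97 and 1.15, a change of 0.85 (SE 0.06). Its probe was dim, above background on 1 of the 2 arrays at 0 h, and the size of its change hangs on the background correction: it was 0.19 with none, 2.01 with a normexp offset of 0, 2.17 with Agilent's processed signals, 1.59 with the deposited table and 0.52 with Cy3 alone. Cyba, a subunit of the NADPH oxidase that makes superoxide, rose from 0.27 and 0.25 to 1.36 and 0.98. Its change was 0.91 (SE 0.11) with the widest gap between the 72 h arrays among the 15 named rises, and the 96 h array read 0.86; with no background correction the change was 0.47. Slc22a20, an organic anion transporter, rose by 0.79 (SE 0.05) from -0.01 and 0.04 to 0.87 and 0.74, and both 24 h arrays, at 0.86 and 0.92, already lay in or above the range of those of 72 h. With no background correction the change of Slc22a20 was 0.25, and with an offset of 0 it was 1.19. Slc12a4, which exports potassium with chloride, rose by 0.35 (SE 0.04). The arrays of 72 h lay above those of 0 h for each of these 4 genes, and the limma adjusted p ranged from 8.19e-07 for Slc22a20 to 7.02e-05 for Slc12a4.

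The other named rises belonged to proteins inside the cell and to 1 long non-coding RNA. Abhd6, a lipase that breaks down monoacylglycerols, went from 1.17 and 1.09 to 1.91 and 1.95, a change of 0.80 (SE 0.05). It was late: the 24 h arrays read 1.03 and 0.99, below both 0 h arrays, the 48 h array 1.29 and the 96 h array 2.52. Mapkbp1, a scaffold of stress kinase signalling, rose by 0.71 (SE 0.06), and Sympk, the scaffold of the machinery that cuts the 3′ ends of messenger RNAs, by 0.63 (SE 0.06). Camta2, a calmodulin-binding transcription activator, rose by 0.54 (SE 0.04) and Zbtb22, a zinc finger protein, by 0.52 (SE 0.07). Camta2 changed by 0.25 with no background correction. Taldo1, an enzyme of the pentose phosphate pathway, rose by 0.36 (SE 0.05) and Sec61b, a subunit of the channel into the endoplasmic reticulum, by 0.36 (SE 0.06). These 2 lost their call with Cy3 alone, where their changes were 0.13 and 0.14 with limma adjusted p of 0.403 and 0.234. Without any background correction Taldo1 changed by 0.13. Gm52608, the long non-coding RNA, was 3.70-fold above the reference at 0 h and rose by 0.41 (SE 0.05), and with Cy3 alone its change was 1.32. All 15 named rises lay above their 0 h mean on the 96 h array too, as the plot of the named genes shows.

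**Figure D2:**
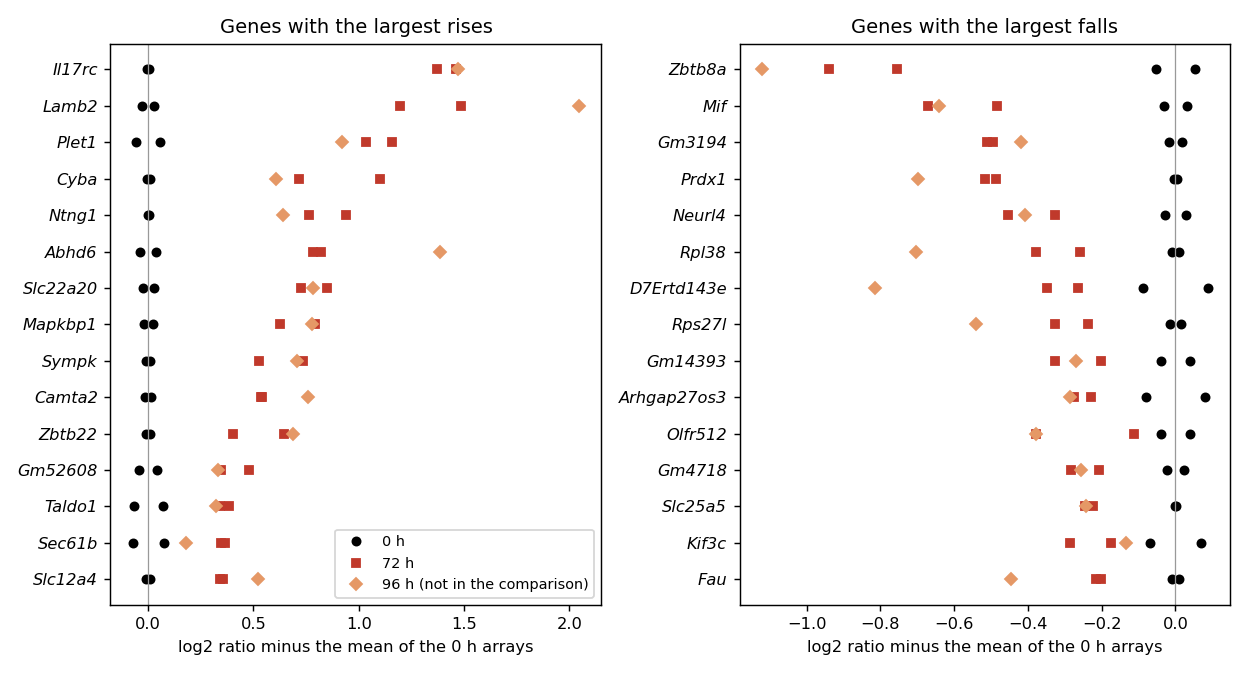
Each symbol is 1 array, placed by its log2 ratio minus the mean of the 2 arrays of 0 h for that gene; circles are 0 h, squares 72 h and diamonds the 96 h array, which took no part in the comparison. The left panel holds the 15 largest named rises, from Il17rc (1.41) to Slc12a4 (0.35), and the right panel the 15 largest named falls, from Zbtb8a (-0.85) to Fau (-0.21).

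The deepest of the named falls was that of Zbtb8a, a zinc finger protein with a BTB domain, from 1.64 and 1.74 to 0.75 and 0.93, a change of -0.85 (SE 0.07, limma adjusted p = 3.46e-06). Zbtb8a did not fall steadily: the 24 h arrays, at 2.00 and 2.02, lay above both 0 h arrays, the 48 h array read 1.32 and the 96 h array 0.57. Mif, a cytokine that stem cells held 3.67-fold above the reference, fell from 1.91 and 1.85 to 1.39 and 1.21, by 0.58 on the log2 scale (SE 0.06, limma adjusted p = 3.27e-05). The 24 h arrays, at 1.83 and 1.91, were still near the 0 h arrays. With no background correction the changes were -0.46 for Zbtb8a and -0.37 for Mif. Prdx1, a peroxidase that removes hydrogen peroxide, fell by 0.50 (SE 0.07) in its brighter probe, while a second probe of the gene gave -0.07 (limma adjusted p = 0.285) and was not called, so the probes of Prdx1 disagree. Gm3194, a gene model, fell by 0.50 (SE 0.05), or changed by -0.19 with no background correction, and Neurl4, a protein of centrioles, by 0.39 (SE 0.05). Slc25a5, which exchanges ADP and ATP across the mitochondrial membrane, fell by 0.24 (SE 0.04).

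Genes of the ribosome were read by few probes. Rpl38, a protein of the large subunit, fell from 0.91 and 0.93 to 0.55 and 0.67 and reached 0.22 at 96 h, a change of -0.32 (SE 0.07, limma adjusted p = 0.00484). Rps27l, a relative of a small-subunit protein, fell from 2.11 and 2.08 to 1.77 and 1.86, and Fau, the precursor of another, from 0.59 and 0.61 to 0.39 and 0.40. Rpl10a and Rps27rt changed by -0.04 and 0.05 and were not called, so 3 of 5 genes of this group fell and none rose, where 15.1% of all probes were called lower. Rpl38 changed by -0.15 and Rps27l by -0.16 with no background correction. These genes, like Mif, Prdx1 and Slc25a5, have processed copies elsewhere in the genome whose transcripts the probes could also read. With median centring in place of loess, Fau changed by -0.14 (limma adjusted p = 0.169) and Slc25a5 by -0.18 (adjusted p = 0.0639), and both calls were lost. Cy3 alone gave larger changes, -0.41 for Fau and -0.36 for Slc25a5, and no background correction gave -0.13 for Slc25a5. Of 3 genes of respiratory complex I, Ndufb11 rose by 0.30 (SE 0.05, limma adjusted p = 5.06e-04) and Ndufa9 by 0.21 (SE 0.04, limma adjusted p = 0.0031), while Ndufa11 gave -0.06 and was not called; of all probes 18.7% were called higher. None of 7 histone genes was called, with changes from -0.06 for H2bc11 to 0.14 for H2bc15. Of all named genes 20.2% were called, and of all probes 33.7%. These 3 groups were picked by symbol after values were seen, and their counts stand as a description.

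D7Ertd143e is the transcript that hosts the miR-290 cluster. Its probe overlaps the hairpin of miR-295, at chr7:3220773-3220841, by 44 bases on the plus strand and includes all letters of miR-295-3p. Whether it reads only the precursor RNA or also the processed microRNA was not tested. The 0 h arrays read 3.24 and 3.41, the 72 h arrays 3.06 and 2.98 and the 96 h array 2.51. The signal of this probe was therefore 10.0-fold above the reference in the stem cells and still 8.10-fold above it at 72 h. The change was -0.31 (SE 0.07, limma adjusted p = 0.00846), and -0.59 with Cy3 alone. Both 72 h arrays lay below both 0 h arrays, but the 24 h arrays, at 3.38 and 3.57, and the 48 h array, at 3.26, did not. The call was lost under 4 of 16 alternatives, without 0 h replicate 2 (adjusted p = 0.0887), without 72 h replicate 2 (0.0516), with a normexp offset of 0 (0.0650) and with the deposited table (0.0606). The seed of miR-295-3p is shared by 5 mature mouse microRNAs of RefSeq, 3 of them on chromosome 7, whose own levels the probes do not give.

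The remaining named falls were small. Gm14393, a gene model, changed by -0.26, Arhgap27os3, a long non-coding RNA opposite Arhgap27, by -0.25, the olfactory receptor Olfr512 by -0.25, the long non-coding RNA Gm4718 by -0.24 and Kif3c, a kinesin motor of neurons, by -0.23. Their limma adjusted p ran from 0.00344 for Gm14393 to 0.0349 for Olfr512, and each of the 5 lost its call under at least 1 alternative. Without 0 h replicate 1 the adjusted p was 0.158 for Arhgap27os3, 0.179 for Olfr512 and 0.0530 for Gm4718, and without 0 h replicate 2 it was 0.0704 for Olfr512 and 0.157 for Kif3c. Without 72 h replicate 1 it was 0.244 for Olfr512, and without 72 h replicate 2 it was 0.0805 for Arhgap27os3 and 0.113 for Kif3c. No background correction gave smaller changes for each of the 5, from -0.16 for Arhgap27os3 to -0.06 for Olfr512. Cy3 alone gave -0.44 for Gm14393, -0.69 for Kif3c and -0.03 for Olfr512, and median centring gave -0.15 for Kif3c. For Olfr512 the change was -0.48 with an offset of 0, with processed signals and with the deposited table, and -0.11 or -0.38 without 72 h replicate 1 or 2. It was the only one of 27 olfactory receptor genes to be called (3.70%), against 20.2% of all named genes and 33.7% of all probes. Acta2, the actin of smooth muscle, read -0.30 and -0.35 at 0 h and -0.35 and -0.32 at 72 h, a change of -0.01 (SE 0.05, limma adjusted p = 0.916). Over all 267 named and tested genes 32 were called higher and 22 lower, which is 20.2%, below the 33.7% of all probes. Where the probe lay within 1000 bases of the gene's 3′ end, 22 of 76 genes were called, and where it lay within 1000 bases of the 5′ end only, 24 of 147. The named genes are thus a small sample of the array in which probes near gene starts are common.

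The largest changes of all were in probes without a gene name. The 0 h arrays of Z00015331-1 read -2.08 and -2.15 and its 72 h arrays 1.21 and 1.08, so that it went from below the reference to above it. Its rise of 3.26 (SE 0.06, limma adjusted p = 5.40e-10) was 9.59-fold, and the 96 h array read 1.82. Z00000270-1 rose from 1.00 and 1.09 to 4.35 and 3.90, with 4.00 at 96 h. Z00026066-1 fell from 4.77 and 4.53 to 0.83 and 0.80, with 0.88 at 96 h. Its change of -3.83 (SE 0.12, limma adjusted p = 6.64e-09) means a 14.2-fold lower ratio, and Cy3 alone gave -5.54. Z00070910-1 fell from 4.03 and 4.10 to 0.76 and 0.76, a change of -3.30 (SE 0.08), with 0.54 at 96 h. With no background correction the change of Z00070910-1 was -2.10. All 4 were past the threshold in each of the 16 alternatives.

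Probes that share letters gave a second view of what fell. Linking probes with at least 20 bases in common gave 26 families of 5 or more probes, with 212 probes in all. In 3 families every tested probe was called higher, in 3 every one was called lower, in 9 none was called and in 11 the calls differed. The strongest of the larger families held 18 probes, none with a gene name, and all 18 were called lower, against 15.1% of all probes. Over its members the median level was 3.11 on both 0 h arrays and 1.02 and 1.09 on the 72 h arrays, with 0.93 at 96 h. Between these times the 3 h array gave a median of 3.15, the 12 h array 2.69, the 24 h arrays 2.30 and 2.36 and the 48 h array 1.54, so that the level sank step by step from 12 h on. The median change was -1.91 and single members ranged from -2.27 to -0.18. The 9 members with the run of 27 bases shown in capitals lay between -2.26 and -1.73. The other 9 members lack the run. Among them are the member with the largest fall, at -2.27, and the member with the second smallest fall. The latter went from 1.49 and 1.42 to 0.33 and 0.33. The member with the smallest fall stood close to the reference already at 0 h, at 0.24 and 0.11. Probes that share letters can read the same RNA, so the 18 are not 18 independent genes. With no background correction the median change was -1.04.

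**Figure D3:**
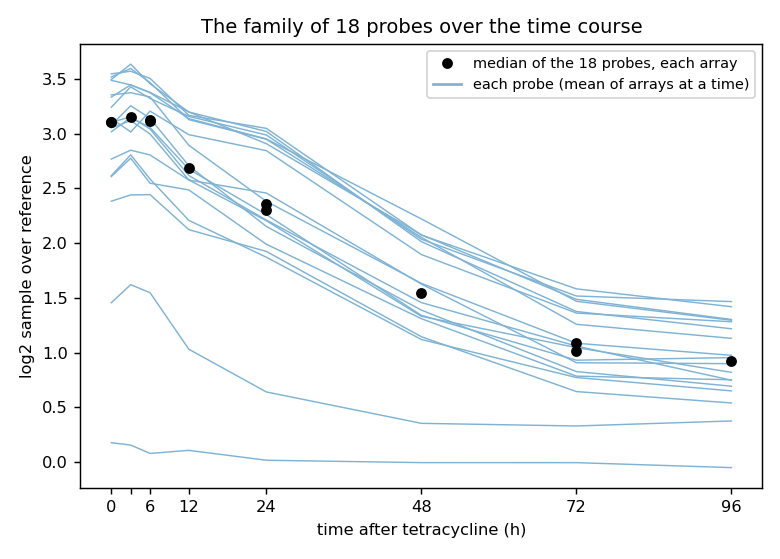
Thin lines are the 18 probes of the family, each as log2 of sample over reference against hours after Tc, with arrays of the same time averaged; black points are the family median on each of the 12 arrays. The median stays near 3.1 to 6 h, is 2.69 at 12 h and falls to 1.02 and 1.09 at 72 h and 0.93 at 96 h, and 1 member lies near 0 throughout.

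The largest family held 38 bright probes, with 0 h levels from 0.32 to 4.93. Of these 36 were called lower and none higher, with a median change of -0.47, where 15.1% of all probes were called lower. They too share letters and can read the same RNA, so the 38 are not independent genes. The median level of this family was 2.51 and 2.53 on the 0 h arrays and 1.99 and 2.07 on the 72 h arrays. The 24 h arrays, at 2.49 and 2.47, were near those of 0 h, and the 96 h array read 1.95. Among the smaller families, a family of 10 probes had all 10 called higher, with a median of 0.41. A family of 5 had 4 called lower and 1 called higher, with a median of -1.22. Of all tested probes 18.7% were called higher and 15.1% lower. As a check of the measurement, 51 pairs of probe names with identical sequence differed in their change by a median of 0.062 on the log2 scale. Of 764 pairs with at least 30 shared bases, 270 had both probes called, and the direction was the same in all 270. A probe can enter several pairs, so these pairs are not independent.

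Levels early in the time course were related to what followed. Probes were sorted by their level on the 3 h and 6 h arrays, which are outside the comparison. By their titles these cells had already received Tc, and their images were analysed on the same day as the 0 h arrays. Of 998 probes over 4-fold above the reference there, 606 were called lower at 72 h (60.7%) and 190 higher (19.04%), and 199 fell at least 2-fold. Of 629 probes over 4-fold below the reference, 337 were called higher (53.6%) and 72 lower (11.4%), and 87 rose at least 2-fold. Among the 35672 probes within 2-fold of the reference, 16.3% were called higher and 11.4% lower, against 18.7% and 15.1% of all probes. Over all probes the log2 ratio had an SD of 0.772 and 0.773 in the 0 h arrays and of 0.746 and 0.744 in the 72 h arrays, with 0.740 in the 96 h array. Levels were thus spread less widely around the reference on each 72 h array than on either 0 h array. Among the named genes Plet1 started high and rose, while Il17rc and Lamb2 started low and rose.

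**Figure D4:**
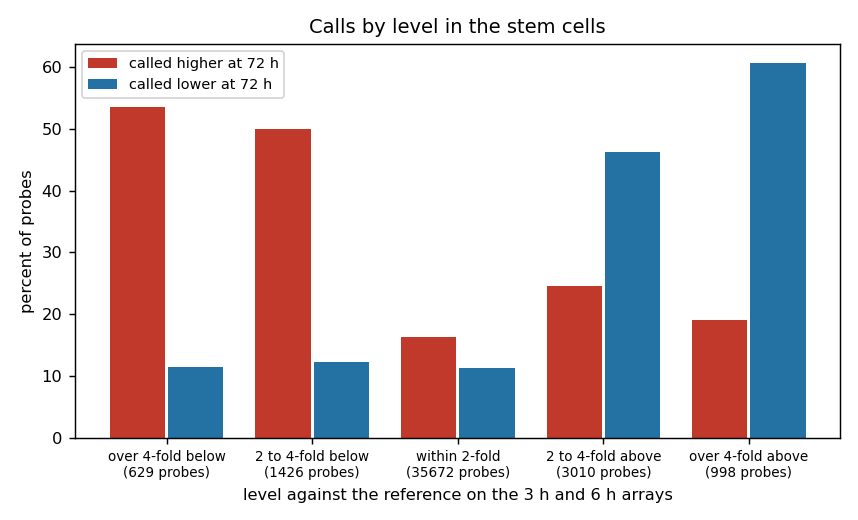
Bars give the percentage of probes called higher (red) or lower (blue) at 72 h, for probes grouped by their level against the reference on the 3 h and 6 h arrays, with the number of probes under each group. The 3 h and 6 h cells had already received Tc. Among the 998 probes over 4-fold above the reference 60.7% were called lower, and among the 629 over 4-fold below it 53.6% were called higher.

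Few probes were switched on or off outright at the sensitivity of the arrays. The Cy3 signal of 359 probes was well above background on both 72 h arrays and on neither 0 h array, and 57 of them were called higher (15.9%), against 18.7% of all tested probes. For 55 of the 359 the bound on the change did not exceed 1. Over the other 304 it was at least 1.05-fold at the median and at least 1.89-fold at most. The 72 h arrays were also brighter in Cy3, with 96.2% to 96.9% of probes well above background against 94.4% to 95.01% on the 0 h arrays, and the part of this in the count was not tested. The reverse held for 30 probes, of which 20 were called lower (66.7%), against 15.1% of all tested probes, with bounds up to at least 1.72-fold. Both sets were picked by which arrays were above background, so the choice itself favours calls in that direction. Each bound sets the brighter signal against the floor of the dimmer arrays.

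The probes that changed most held the letters that end messenger RNAs more often. The poly(A) signal AATAAA or its variant ATTAAA stood in the sense letters of 19.12% of the probes that rose at least 2-fold and of 14.3% of those that fell, against 9.69% of all tested probes. Both sets were also brighter, with a median signal (mean log2 of both channels) of 9.24 and 9.18 against 8.05, and had a lower median GC content, of 41.7% and 40.0% against 43.3%. The part of brightness and of base composition in this difference was not tested.

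The 96 h array gave the same direction for 13754 of 14037 called probes (98.0%). It shares the 0 h arrays with the comparison, so a second check used differences with no array in common. Of the probes that rose at least 2-fold from 0 h replicate 1 to 72 h replicate 1, 767 had a value at 96 h, and 766 of them lay above 0 h replicate 2 there. Of these 683 rose at least 2-fold, with a median of 1.50 against 1.26 at 72 h. All 519 probes that fell by that much and had a value lay below 0 h replicate 2 at 96 h, and 457 of them at least 2-fold, with a median of -1.40 against -1.35. With the replicates exchanged, 729 of 730 rises and 444 of 444 falls kept their direction. The median of these rises was 1.49 at 96 h against 1.23 at 72 h, and that of these falls was -1.43 against -1.32. By their medians the rises and, by less, the falls were larger at 96 h than at 72 h. With 1 array at 96 h neither step was tested.

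**Figure D5:**
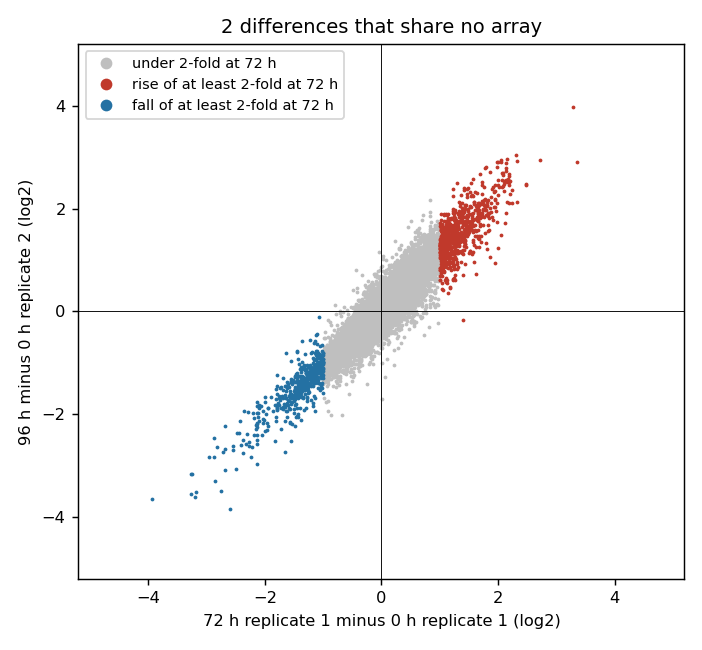
Each point is a probe; the x axis gives the log2 ratio at 72 h minus that at 0 h, both of replicate 1, and the y axis the 96 h array minus 0 h replicate 2, so that no array enters both axes. Of the rises of at least 2-fold (red) 766 of 767 lie above 0 on the y axis, and all 519 falls of that size (blue) lie below it.

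All arrays of 0 to 12 h had their images analysed on 1 day and all arrays of 24 to 96 h on a second, so that a difference between days and a difference between 72 h and 0 h cannot be told apart here. Within the second day, and without any array of the comparison, the probes that had risen at least 2-fold by 72 h rose from 24 h to 96 h by a median of 1.15, with 710 of 721 above 0. Those that had fallen changed by a median of -0.97, with 430 of 472 below 0. Among probes not called at 72 h, 47.9% lay above 0 in that difference. Cy5, which held the same RNA on every array, was also fitted alone for 72 h against 0 h. It gave 107 calls among 41753 probes, 40 of them at least 2-fold, and 3202 probes at an unadjusted p under 0.05. Over the rises of at least 2-fold its median change was 0.05 and over the falls -0.17, against 1.27 and -1.54 in Cy3 alone. The median net Cy3 signal was 113 to 120 units on the 0 h arrays, 148 to 163 on those of 72 h and 221 on the 96 h array, and 94.4% to 98.2% of probes on these 5 arrays were well above background. The number of arrays limits the precision.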

How the data were processed

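Total RNA (Cy3) and a mouse reference pool (Cy5) were hybridised to 2-colour Agilent arrays without dye swap, 1 sample per array. The deposited scanner files hold intensity values per spot that Agilent Feature Extraction (version 7.5.1 per the file headers) wrote, and the deposited series table holds log10 values. Mean intensity was corrected with normexp (offset 50), log2 ratios were normalized by loess within arrays in limma 3.58.1 (R 4.3.3), outlier spots were left out, and spots of 1 probe averaged. The offset shrinks changes of dim probes. Of 42006 probes 41754 had Cy3 well above background on at least 2 arrays. One lmFit and eBayes fit of 8 time groups (12 arrays, 4 residual degrees of freedom) gave changes, with Benjamini-Hochberg adjustment over 41737 probes; 169 of these miss an array through outlier flags. On 41246 simulated probes, of which 200 changed, this comparison recovered 0% at a log2 change of 0.25, 86% at 0.5 and 97% at 1. In the data 33.7% of the probes were called, so the adjusted cutoff was less strict there than in the simulation. The simulated rates therefore do not give the recovery in the data. None of the 91 probes of the named genes, the unnamed 4 and both large families was saturated on the 4 arrays.

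The genes named are those of 21 lists that a placed probe reads, and the 15 largest rises and falls among called genes whose 72 h arrays lie on one side of both 0 h arrays, with Cy3 well above background on both brighter arrays and 1 probe per gene (highest mean signal); without a name, 2 probes each way. Lists, members and rules were chosen with earlier results of these data known; the placement, the families, the level groups, the sequence features, the Cy5 fit and the differences without shared arrays were added after seeing the data. Placement searched 32851 start-site windows (250 bases before to 50 after a start) and 1005 hairpins. Replicate numbers were not taken to pair arrays: correlations of same-numbered deviations ran from -0.04 to 0.16. Alternatives changed background correction, signal, normalization, filter, arrays, weights, block and threshold. Figures used matplotlib 3.10.9.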

Additional observations from a re-analysis of the deposited data

How the results depend on the processing

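The count of 14085 called probes stayed within 1.5 times under 15 of 16 alternatives, and Cy3 alone called 9016, of which 4415 were higher. Changes of at least 2-fold depended on the signal: with no background correction 339 rose and 235 fell, and with Agilent's processed signals 724 fell. Rises were 55.3% of all calls; they were 56.6% with an offset of 0, 57.0% with no background correction, 54.2% with processed signals, 49.0% with Cy3 alone, 53.2% with the deposited table, 60.99% with median centring and 57.9% at an adjusted p under 0.01. With any 1 of the 4 arrays left out, 11250 to 13138 probes were called, 55.5% to 57.6% of them rises. The share of called probes with the same direction at 96 h was 98.5% with an offset of 0 and 98.6% with Cy3 alone. With the replicate block 14071 probes were called, 7800 higher and 6271 lower, and it changed no call of a named gene. Replicate numbers were not taken to pair the arrays, since only 1 of 6 correlations of same-numbered deviations, 0.16 for 24 h with 72 h, was over 0.1. Of 35 named genes and probes 25 kept their call, or its absence, under every alternative run, and no called change reversed its direction. Acta2, which was never called, had changes of either sign, from -0.06 to 0.05. Of 559 single values 39 lost the call. The cause was not tested. In the family of 18 probes 17 or 18 were called lower under each alternative, with a median of -1.04 with no background correction.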
